A study of Mus musculus with 3 samples.

Results

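The SOCS family (suppressors of cytokine signalling) was described in mouse lung endothelial cells (ECs), as its 8 genes Socs1 to Socs7 and Cish, found by symbol among the 32285 genes listed in the files. All 8 were detected. A cytokine that binds its receptor activates Janus kinases (JAKs), which phosphorylate STAT transcription factors, and several SOCS genes are themselves STAT targets whose proteins then bind the receptor or the kinase and end the signal. Each member carries an SH2 domain, which docks on phosphorylated tyrosines, and a SOCS box, which recruits an elongin and cullin ubiquitin ligase. In endothelium, SOCS3 is best known as the brake on signalling through gp130, the shared receptor chain of the interleukin 6 family.

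Wild-type (WT) C57BL/6 mice in 3 groups gave 1 library each. Control mice were given PBS by tail vein and taken after 6 h. The other mice were given 200000 B16-F10 cells, a mouse melanoma line, in 100 µl of PBS by the same route, and were taken after 6 h or 30 h. They were males of 8 to 10 weeks per the methods. Each library pooled the cells of several mice (2 per treatment in the labels, 3 in the study's methods), sorted as Pecam1-positive and Ptprc-negative, and per its label the 6 h library also received sorted melanoma cells. With 1 library per group, no difference between libraries has a replicate check and no p-value is given for one. The 30 h library was set against a control taken at 6 h, so time after injection and tumor cells cannot be told apart there.

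UMIs (molecule tags, each marking 1 captured RNA) were summed over 11231 endothelial barcodes of the control library, 10583 of the 6 h library and 9278 of the 30 h library, out of 15660, 15100 and 13082 barcodes with at least 300 genes. The sums held between 81485079 and 90853430 UMIs. Levels are CPM, the UMIs of a gene per 1000000 UMIs of the sum. Because 3′ ends were counted, 1 molecule gives 1 UMI whatever the length of the transcript. Intervals are exact 95% intervals that cover counting error only. Between 22 and 38 barcode sequences were shared by a pair of libraries. Within the sums, barcodes with at least 3 UMIs of epithelial markers numbered 5334, 1849 and 1017 (control, 6 h and 30 h), those with platelet markers 776, 911 and 891, and those with immune, mesenchymal or melanoma markers at most 173 in any library. Without all of these barcodes, Socs3 was 1.57-fold of control at 6 h and 0.731 of control at 30 h, beside 1.53 and 0.706 with them.

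Promoter sequences of Socs1 and Socs3 are shown because these were the members at least 1.5-fold higher in the 6 h library. RefSeq promoters (GRCm38.p6) were found for 4 of the 8 members, namely Socs1, Socs3, Socs4 and Cish. The 250 bases before the RefSeq start of the gene are printed 5′ to 3′ on the strand of the gene, at chr16:10785537-10785786 (minus strand) for Socs1 and chr11:117969367-117969616 (minus strand) for Socs3. Capitals mark matches to GAAA, any 2 bases and GAAA again, the core of interferon response elements (the GAAA pair, searched on both strands), and to TTCNNNGAA, the palindromic core of STAT sites, which reads the same on both strands.
Socs1: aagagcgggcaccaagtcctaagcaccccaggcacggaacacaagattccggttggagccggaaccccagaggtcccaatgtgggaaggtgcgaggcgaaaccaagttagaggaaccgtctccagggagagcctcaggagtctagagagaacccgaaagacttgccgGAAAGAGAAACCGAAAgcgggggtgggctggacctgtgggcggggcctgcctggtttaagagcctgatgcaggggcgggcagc
Socs3: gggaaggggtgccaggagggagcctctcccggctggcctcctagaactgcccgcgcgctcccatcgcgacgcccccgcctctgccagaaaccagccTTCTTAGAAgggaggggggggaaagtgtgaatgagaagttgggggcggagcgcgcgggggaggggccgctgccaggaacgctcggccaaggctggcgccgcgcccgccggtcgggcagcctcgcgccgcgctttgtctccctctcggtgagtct
The Socs1 window held 2 overlapping matches to the GAAA pair, at bases 83 to 74 and 77 to 68 before the start, and no TTCNNNGAA. The Socs3 window held 1 TTCNNNGAA match, at bases 154 to 146 before the start. Neither motif was in the windows of Socs4 or Cish. Among all 32851 promoters of the table, 2.98% of windows of this length held the GAAA pair and 7.02% held TTCNNNGAA. The GAAA pair was searched after the letters had been seen. In GENCODE M21 the Socs3 and Cish windows lie inside the gene models, which start further upstream than the RefSeq entries, and the Socs3 window overlaps an exon of a noncoding transcript of the same gene.

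Socs3 was the dominant member in every library. Its level was 546 CPM in control (541-551, 49624 UMIs), 837 CPM at 6 h (831-843, 73098 UMIs) and 385 CPM at 30 h (381-390, 31402 UMIs). The 6 h library was highest and the 30 h library lowest, and no intervals overlapped. Socs3 made up 62.0%, 70.2% and 61.5% of the CPM summed over the 8 members in control, 6 h and 30 h. Cish, which binds receptors that signal through STAT5, was second at 116, 113 and 75.4 CPM in the same order. Socs2, a regulator of growth hormone signalling, followed at 71.7, 71.9 and 34.9 CPM. Both were lowest at 30 h. The remaining 5 members lay between 10.5 and 49.4 CPM in every library. Socs4 and Socs5, members with long N-terminal regions that are linked to growth factor receptors, had 42.6 and 41.6 CPM in control, 45.9 and 49.4 CPM at 6 h and 38.4 and 44.2 CPM at 30 h. Their intervals overlapped in control, so the order of these neighbors is not settled there. Socs6 and Socs7, a related pair, had 25.3 and 23.6 CPM in control. Socs1, the strongest inhibitor of interferon signalling in the family, had 14.5, 23.6 and 10.5 CPM. It was the lowest member in control and at 30 h, and at 6 h its interval (22.6-24.6) overlapped that of Socs7 (23.7-25.8).

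**Figure D1:**
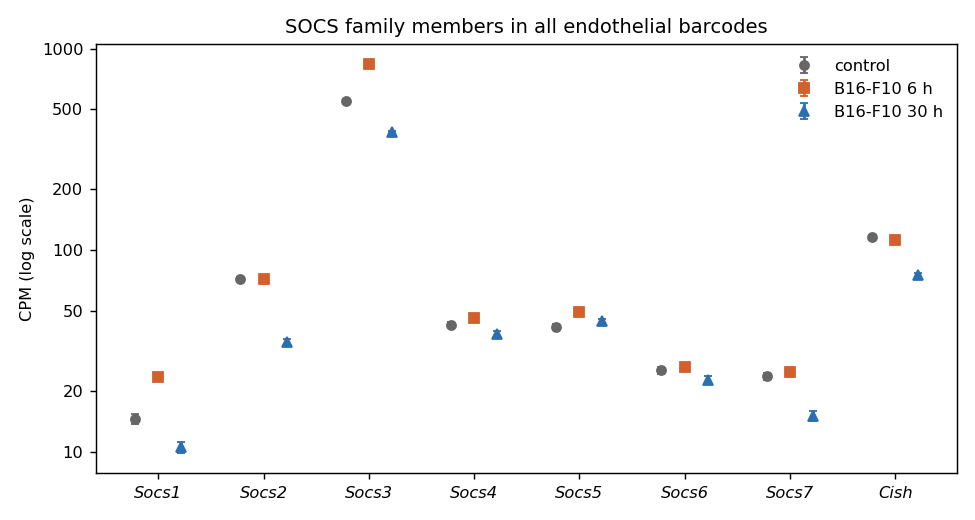
Level of each SOCS family member in CPM (log scale) in all endothelial barcodes of the control, 6 h and 30 h libraries, with exact 95% counting intervals that are often smaller than the point. Socs3 sits at 546, 837 and 385 CPM, above every other member in each library, and the 30 h points of Socs2, Socs7 and Cish lie below their control points.

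At 6 h against control, 2 of the 8 members were at least 1.5-fold higher and none was at least 1.5-fold lower. Of 10175 genes whose mean reached 5 CPM, all 8 members included, 2.06% were 1.5-fold higher and 1.36% 1.5-fold lower. The members were Socs1, 1.63-fold higher (1.52-1.74), and Socs3, 1.53-fold higher (1.51-1.55). Neither was 1.5-fold higher in barcodes with a low share of immediate early genes (described with the bins), where Socs3 was 1.32-fold and Socs1 0.911-fold of control. In general capillary barcodes alone, Socs3 was 1.74-fold of control (1.58-1.92) in the lowest bin of this share and 1.15-fold (1.10-1.20) in bin 2. Of the genes tested, 1.43% had a larger ratio than Socs1 and 1.83% a larger ratio than Socs3. Socs5 was 1.19-fold (1.14-1.24) and Socs4 1.08-fold (1.03-1.13) of control. For Socs2 (1.00, 0.969-1.04), Socs6 (1.04, 0.983-1.10) and Socs7 (1.05, 0.984-1.11) the counting interval of the ratio included 1. Cish was 0.971 of control (0.944-0.998). The median log2 ratio of the members was 0.09, against -0.01 over all genes tested.

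At 30 h against control, 3 of the 8 members were at least 1.5-fold lower and none 1.5-fold higher, beside 5.01% and 4.85% of all genes tested. Socs2 was at 0.487 of its control level (0.466-0.509), Socs7 at 0.637 (0.594-0.684) and Cish at 0.649 (0.629-0.670). Of all genes, 99.1% had a higher ratio than Socs2. Socs3 was at 0.706 (0.696-0.716) and Socs1 at 0.723 (0.663-0.789), both lower than in control by less than the limit used. In barcodes with a low immediate early share they were at 0.990 and 1.05 of control. By the bins described below, the Socs1 ratio in general capillary barcodes was 0.867 (0.565-1.33) in bin 1 and 1.35 (1.03-1.76) in bin 2. The direction of Socs1 at a low share is thus not settled. Socs4 (0.900) and Socs6 (0.898) were slightly lower, and Socs5 was at 1.06 (1.02-1.11), the only member above its control level. The median log2 ratio was -0.49 for the members and -0.07 for all genes. Set against the 6 h library, the 30 h library had 4 members at least 1.5-fold lower, beside 5.28% of all genes, and none higher, beside 5.21%. They were Socs1 (0.445), Socs3 (0.460), Socs2 (0.485) and Socs7 (0.610). In barcodes with a low immediate early share, Socs3 was at 0.752 and Socs1 at 1.16, so neither was 1.5-fold lower there. The Socs1 intervals in bins 1 and 2 of general capillary barcodes included 1 (1.19, 0.723-1.98, and 1.22, 0.930-1.61). A change of direction is thus not shown. Cish, at 0.668, lay just outside the limit. The 3 comparisons share libraries and are not independent. Scaling by the median of ratios over genes, in place of total UMIs, left Socs2 alone past 1.5-fold at 30 h against control (0.512), with Cish at 0.683. Thinning each barcode to 2000 UMIs ended the Socs7 call (0.702), and barcodes with a low immediate early share ended that of Cish (0.706).

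**Figure D2:**
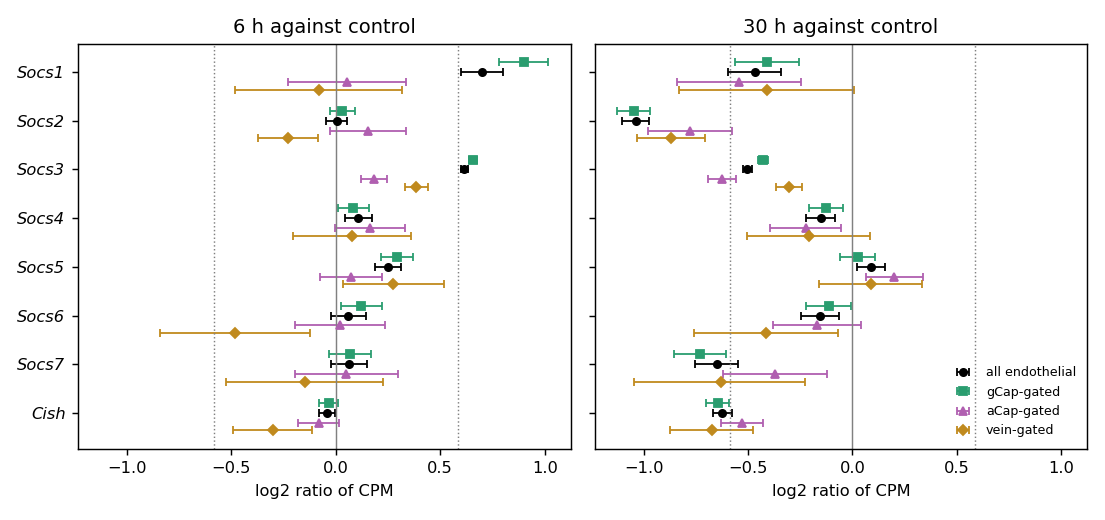
Log2 ratio of CPM at 6 h (left) and 30 h (right) against control for each member, in all endothelial barcodes and in gCap-, aCap- and vein-gated barcodes. Bars are exact 95% counting intervals and dotted lines mark 1.5-fold. Socs1 and Socs3 lie past the upper line at 6 h in all endothelial and gCap-gated barcodes, and Socs2 lies past the lower line at 30 h in every set drawn.

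Endothelial classes were gated by marker genes: general capillary (gCap), aerocyte (aCap, the large cells of gas exchange), artery, vein and lymphatic (LEC). Gated barcodes numbered 7942, 7644 and 6006 for gCap in control, 6 h and 30 h, 1423, 1146 and 1406 for aCap, 604, 437 and 457 for vein, 58, 57 and 158 for artery and 71, 56 and 55 for LEC. Between 1104 and 1227 barcodes per library met no gate, with median depths from 2568 to 2797 UMIs, and up to 29 met several. Summed markers of a class were highest in its own gate in every library, but the barcodes were chosen by these markers, so this is no check of the classes. Single markers could be higher elsewhere. In control, Lyve1 of the LEC list had 2630 CPM in vein-gated and 1837 CPM in LEC-gated barcodes. Nr2f2 of the vein list had 1403 CPM in LEC-gated and 490 CPM in vein-gated barcodes. The artery- and vein-gated barcodes also held gCap markers at 6595 to 8207 CPM, beside 8745 to 9711 CPM in gCap-gated barcodes. Some markers of the gCap list were as high there as in the gCap gate, such as Ptprb, with 3340 CPM in vein-gated and 2820 CPM in gCap-gated barcodes of the control library.

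Across the classes, Socs3 and Socs2 were most abundant in vein-gated barcodes. Sums per library and class were tested against gCap-gated barcodes with edgeR, with library as a block (15 sums of 3 libraries). Of the 8 members, 3 were called in aCap (1 higher, 2 lower), 3 in artery (1 higher, 2 lower), 4 in vein (3 higher, 1 lower) and 4 in LEC (0 higher, 4 lower) at an adjusted p under 0.05. The same test called 26.0% of all 12887 genes higher and 26.3% lower in aCap, 7.1% and 5.56% in artery, 16.4% and 12.1% in vein, and 18.2% and 18.6% in LEC. The share of members called in aCap was below the share of genes called there. The LEC count includes Socs1, which had 1 UMI per library in that class.

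Socs3 had 850, 1109 and 688 CPM in vein-gated barcodes of the control, 6 h and 30 h libraries, and 607, 956 and 451 CPM in gCap-gated barcodes. Vein exceeded gCap in each library. The edgeR log2 difference was 0.51 (SE 0.13, adjusted p = 0.00702), a call lost in 3 of 10 alternatives: without the control library (adjusted p = 0.0978), with doubled marker UMIs in the gates (0.0656) and without the library block (0.566). In aCap-gated barcodes it had 276, 314 and 179 CPM, a log2 difference from gCap of -1.32 (SE 0.14, edgeR adjusted p = 1.75e-07). Artery-gated barcodes had 254, 387 and 178 CPM (log2 difference -1.30, edgeR adjusted p = 4.83e-06, or 0.0596 without the library block), and the intervals of artery and aCap overlapped in control and at 30 h. LEC-gated barcodes were lowest, with 103, 229 and 44.8 CPM on 62, 105 and 24 UMIs (log2 difference -2.53, SE 0.18, edgeR adjusted p = 1.32e-09).

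Socs2 had 160, 137 and 87.8 CPM in vein-gated barcodes, against 72.0, 73.6 and 34.8 CPM in gCap-gated barcodes (log2 difference 1.19, SE 0.09, edgeR adjusted p = 6.47e-09). It was higher in vein than in gCap in 3 of 3 libraries, between 1.86- and 2.52-fold. Artery-gated barcodes came second in each library, with 127, 98.5 and 43.8 CPM (log2 difference from gCap 0.52, edgeR adjusted p = 0.0143). That call was lost in 4 of 10 alternatives, among them without the control library (edgeR adjusted p = 0.254), the 6 h library (0.0534) or the library block (0.586). The aCap-gated barcodes held 34.0, 37.8 and 19.8 CPM, which was 0.472 to 0.570 of the gCap level (log2 difference -0.92, edgeR adjusted p = 1.33e-07). In LEC the log2 difference from gCap of -0.50 passed narrowly (edgeR adjusted p = 0.0471) and was lost in 8 of the 10 alternatives, including without the control (0.131) or the 6 h library (0.221).

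Cish had similar levels in the capillary classes and was lower elsewhere. It had 122, 119 and 77.8 CPM in gCap-gated and 123, 116 and 85.1 CPM in aCap-gated barcodes, a log2 difference of 0.07 (SE 0.08, edgeR adjusted p = 0.492). Vein-gated barcodes had 97.0, 78.6 and 60.8 CPM (log2 difference -0.35, edgeR adjusted p = 0.00411), a call lost without the 6 h library (adjusted p = 0.0952) or the library block (0.281). Artery-gated barcodes had 42.8, 61.8 and 42.0 CPM (log2 difference -1.06, edgeR adjusted p = 1.37e-05). In LEC-gated barcodes it had 23.2, 34.9 and 24.2 CPM, the lowest in each library (log2 difference -2.03, edgeR adjusted p = 3.85e-08). The intervals of artery and LEC overlapped in all 3 libraries.

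Socs5 was higher in aCap (52.5, 55.3 and 60.4 CPM) than in gCap (39.1, 47.9 and 39.8 CPM) by 0.45 on the log2 scale (SE 0.09, edgeR adjusted p = 0.000437, or 0.0757 without the library block). In vein it was higher than in gCap by 0.36 (edgeR adjusted p = 0.0118), a call lost without the control library (0.0887) or the library block (0.274). Socs1 was represented by 1 UMI in the LEC-gated barcodes of each library, against 14.2, 26.5 and 10.7 CPM in gCap. Its ratio of LEC to gCap was 0.117 (0.00296-0.654) in control, 0.0824 (0.00208-0.460) at 6 h and 0.175 (0.00442-0.978) at 30 h, and edgeR called it lower there (adjusted p = 0.00115). In LEC Socs1 was under the limit of 5 CPM used for ratios, and the edgeR filter kept it through the other classes. The size of the difference is therefore not measured. Socs4, Socs6 and Socs7 were called in no class, but 6 of the 18 uncalled differences passed in some alternative. Socs7 was called lower in aCap in 5 of 10 alternatives, among them without the 30 h library (edgeR adjusted p = 0.0107). Socs4 in aCap and Socs6 in LEC were called in 2 each, and Socs4 in vein, Socs1 in artery and Socs1 in vein in 1 each, the last without the 6 h library (edgeR adjusted p = 0.0264).

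**Figure D3:**
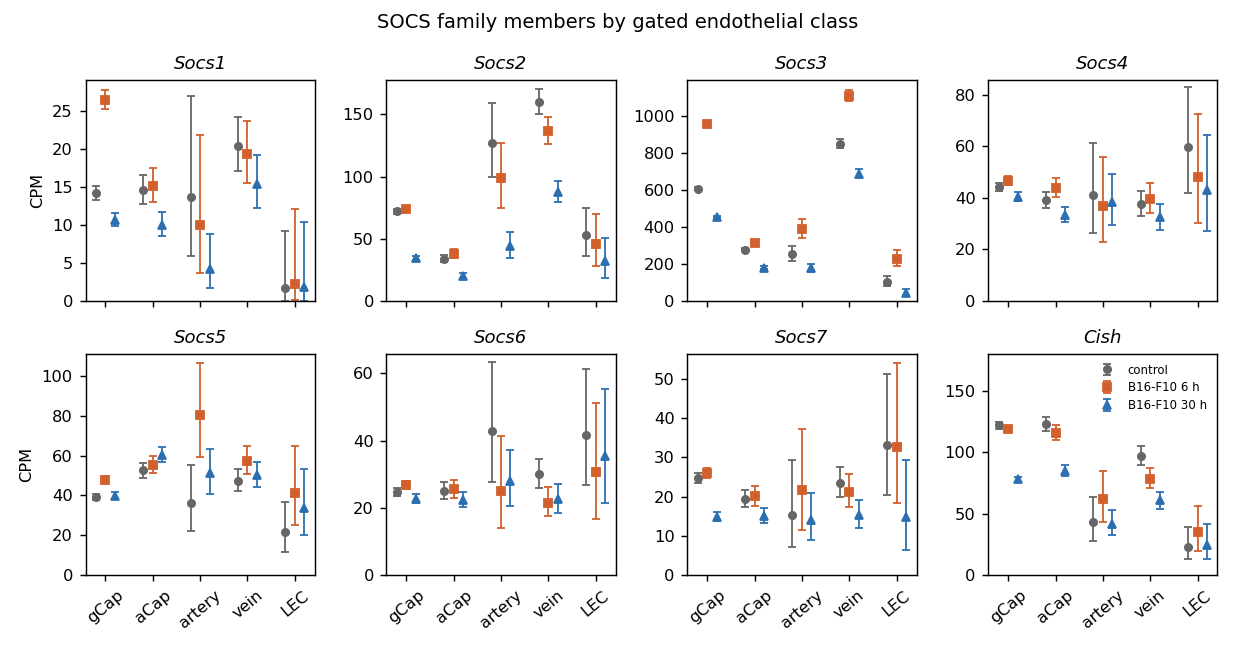
CPM of each member in gCap-, aCap-, artery-, vein- and LEC-gated barcodes of the 3 libraries, with exact 95% counting intervals. Socs3 and Socs2 are highest in the vein gate, Cish is highest in the capillary gates, and the 30 h points of Socs2 lie below the control points in all 5 gates, though their intervals overlap in LEC.

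In gCap-gated barcodes, 2 members were at least 1.5-fold higher and 0 lower at 6 h, beside 2.7% and 1.45% of genes, and 0 were higher and 3 lower at 30 h, beside 5.07% and 4.84%. In aCap-gated barcodes, 0 were higher and 0 lower at 6 h (1.23% and 1.52% of genes), and 0 were higher and 2 lower at 30 h (6.28% and 7.34%). In vein-gated barcodes, 0 were higher and 0 lower at 6 h (3.95% and 3.51%), and 0 were higher and 3 lower at 30 h (5.92% and 7.6%). Artery-gated barcodes had 2 members higher and 1 lower at 6 h (15.1% and 15.1% of genes) and 0 higher and 3 lower at 30 h (13.4% and 17.0%). LEC-gated barcodes, where 7 members passed the expression limit, had 3 higher and 0 lower at 6 h (15.5% and 17.9%) and 1 higher and 3 lower at 30 h (14.5% and 18.2%). The artery and LEC gates hold few UMIs, and among the ratios past 1.5-fold the intervals of Socs6 in artery and of Socs2, Socs5, Socs7 and Cish in LEC included 1. At 6 h, Socs3 was 1.58-fold of control in gCap (1.56-1.60), 1.30-fold in vein (1.26-1.36), 1.14-fold in aCap (1.09-1.19), 1.53-fold in artery (1.24-1.89) and 2.22-fold in LEC (1.61-3.09). After the thinning described with the single barcodes, Socs3 was found in 15.5% of LEC-gated barcodes in control and 14.3% at 6 h. The variance of these counts was 1.65 and 4.54 times their mean. The intervals of the shares are wide, and the source of the LEC fold was not tested. The interval of that fold covers counting error only and is too narrow for such uneven barcodes. In artery-gated barcodes the share was 25.9% in control and 26.3% at 6 h. Socs5 in artery was 2.23-fold of control (1.31-3.91), on 48 and 21 UMIs, and Socs6 there was at 0.584 (0.286-1.15). For Socs3, the ratio of the aCap fold to the gCap fold was 0.721 (0.689-0.754, counting error only). Socs1 was 1.87-fold in gCap (1.72-2.02), while its intervals included 1 in aCap (1.04, 0.852-1.26) and vein (0.946, 0.716-1.25). The ratio of folds was 0.556 (0.452-0.685) for aCap and 0.507 (0.383-0.670) for vein against gCap. These are differences between single libraries, and whether they exceed the variation between mice was not tested. At 30 h, Socs2 was at 0.483 of control in gCap (0.458-0.510), 0.584 in aCap (0.507-0.671), 0.548 in vein (0.490-0.614) and 0.345 in artery (0.246-0.484), and at 0.597 in LEC with an interval that included 1 (0.311-1.11). Socs1 in artery was at 0.311 (0.0959-0.980), on 7 and 8 UMIs. Cish was at 0.639, 0.694 and 0.627 of control in gCap, aCap and vein. Socs7 was at 0.603 in gCap, 0.645 in vein and 0.773 in aCap. Socs3 was at 0.649 of control in aCap (0.619-0.680), past the limit there, and at 0.744 in gCap and 0.810 in vein. In LEC only Socs3, at 0.435 of control (0.259-0.707), had an interval that excluded 1 at 30 h.

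Single barcodes were compared after each was thinned to 2000 UMIs, which left out 195, 197 and 111 shallower barcodes in control, 6 h and 30 h. Socs3 was found in 45.1% of control barcodes (44.1-46.0%), 54.2% at 6 h (53.3-55.2%) and 34.3% at 30 h (33.3-35.3%), against 65.5%, 72.3% and 56.6% without thinning. The lowest class was LEC, with 15.5%, 14.3% and 5.45% of barcodes, and vein was highest with 66.1%, 66.8% and 55.1%. In aCap the share was 30.0% in control and 29.1% at 6 h, with overlapping intervals. Barcodes with 5 or more Socs3 UMIs made up 5.56%, 11.6% and 2.75% in control, 6 h and 30 h. The variance of the thinned Socs3 counts was between 2.62 and 3.17 times their mean, whereas for the other 7 members it lay between 1.01 and 1.17 times the mean. For uneven barcodes this ratio rises with the mean, which was 0.732 to 1.65 UMIs for Socs3 and 0.0214 to 0.226 for the others. It therefore does not rank the members by unevenness. Random sampling of equal barcodes gives a ratio of 1, and the sums here hold several classes. In gCap-gated barcodes alone the Socs3 ratio was 2.57, 3.04 and 2.56 in control, 6 h and 30 h. Empty droplets (10 to 100 UMIs) held Socs3 at 425 CPM in control, 644 CPM at 6 h and 373 CPM at 30 h, so free RNA carried it in each library. LEC-gated barcodes of the same libraries held 103, 229 and 44.8 CPM, less than the empty droplets.

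Socs3 varied with immediate early genes, transcription factor and feedback genes that are switched on within minutes of a stimulus and also during tissue digestion. The 16 genes of this list took 1.07% of endothelial UMIs in control, 1.43% at 6 h and 0.789% at 30 h, and 11 heat shock genes took 0.198%, 0.393% and 0.235%. The gCap-gated barcodes were divided into 4 bins by their share of immediate early UMIs, with limits at the quartiles of the control library. The top bin held 25.0% of gCap-gated barcodes in control, 41.3% at 6 h and 12.1% at 30 h. From the lowest to the highest bin, Socs3 in control went from 49.3 to 235, 784 and 1295 CPM. Within bins, Socs3 at 6 h was 1.74-, 1.15-, 1.08- and 1.31-fold of control, each interval above 1, although barcodes of the top bin also had more immediate early UMIs at 6 h (2.70%) than in control (2.23%). At 30 h the ratios were 0.933, 1.07, 0.932 and 0.999, against 0.744 over all gCap-gated barcodes.

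Socs1 went up over the same bins, from 3.45 to 30.4 CPM in control. At 6 h it was 1.62-fold of control in the top bin (1.46-1.80) and 0.731-fold in the lowest (0.443-1.18), where it rested on 28 and 50 UMIs. In bins 2 and 3 it was 1.10-fold (0.818-1.49) and 1.23-fold (1.03-1.47). Socs2 hardly varied with the bins, between 69.6 and 75.3 CPM in control. It was lower at 30 h in all 4, at 0.435, 0.492, 0.513 and 0.520 of control. Cish went from 79.5 CPM in the lowest bin to 167 CPM in the highest in control, and at 30 h was at 0.639, 0.710, 0.716 and 0.679 of control. Socs7 at 30 h was at 0.670, 0.570, 0.626 and 0.509 of control over the bins. Socs2, Cish and Socs7 were thus at 0.716 of control or lower in each bin at 30 h, where Socs3 lay between 0.932 and 1.07. At 6 h Cish was below control in every bin, at 0.864, 0.854, 0.840 and 0.947, although over all gCap-gated barcodes it was at 0.977. In barcodes at or below the control median of immediate early share, Socs3 at 6 h was 1.32-fold of control, Socs1 was 0.911-fold, and no member was 1.5-fold higher. Whether the immediate early genes differ because of the treatment or of the handling of each library cannot be told apart.

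**Figure D4:**
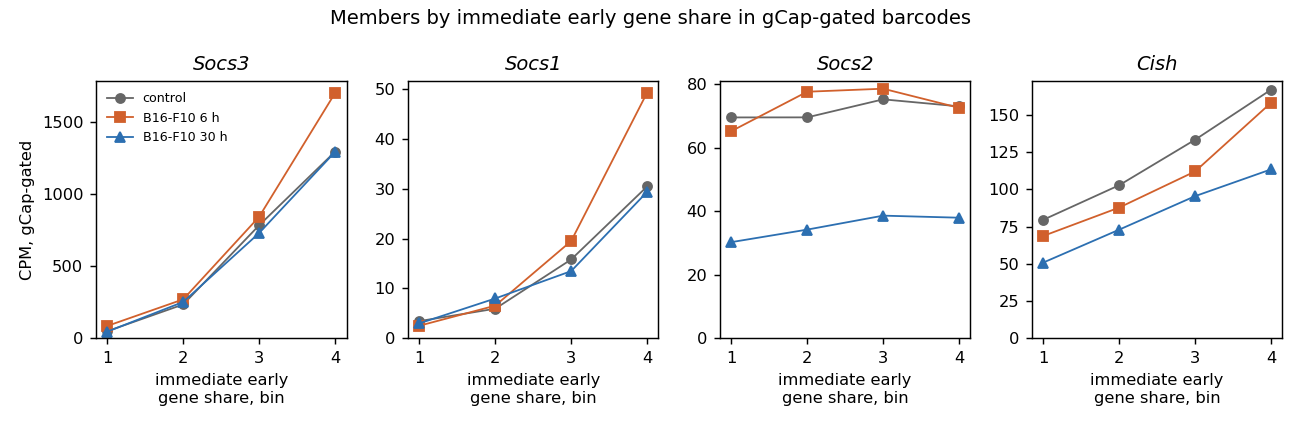
CPM of Socs3, Socs1, Socs2 and Cish in gCap-gated barcodes, by bin of the share of immediate early gene UMIs (1 lowest, 4 highest, limits from control quartiles) and library. Socs3 climbs from 49.3 to 1295 CPM over the control bins with the 30 h points close to control, while Socs2 and Cish are lower at 30 h in all 4 bins.

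Within gCap-gated barcodes of 1 library, Socs3 went with some members and not with others. Mean Socs3 in thinned barcodes with a Socs1 UMI was 1.70, 1.79 and 2.45 times that in barcodes without one in control, 6 h and 30 h. For Cish the ratio was 1.35, 1.39 and 1.44. For Socs2, Socs4, Socs5, Socs6 and Socs7 it lay between 0.853 and 1.15. Among 7 other genes compared, it was highest for Junb, an immediate early gene (5.92, 7.00 and 6.23), and Cebpd, a cytokine-induced transcription factor (2.20, 2.65 and 2.11). It was 1.51, 1.70 and 1.81 for the kinase gene Pim3 and 1.58, 1.17 and 1.77 for the heat shock gene Hspa1a. For Bcl3, Icam1 and Osmr it lay between 0.888 and 1.44. In control, Junb was found in 5086 of the thinned barcodes and Cebpd in 4838, beside 1795 for Icam1 and 214 for Hspa1a. How often a gene is found affects the ratio, so it does not rank the genes by their link to Socs3. These ratios describe barcodes of the same library and carry no test.

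Of 24 listed cytokine receptors, 16 passed the expression limit, and at 6 h none was 1.5-fold higher or lower (median log2 ratio 0.17). Il6st, which encodes gp130, was at 216, 251 and 183 CPM in control, 6 h and 30 h. Osmr, the oncostatin M receptor chain that pairs with it, was at 67.1, 98.0 and 45.8 CPM, 1.46-fold of control at 6 h and 0.683 at 30 h. At 30 h, 2 receptors were 1.5-fold higher and 2 lower. Il31ra, a gp130-like receptor, went from 5.54 to 27.8 CPM (5.02-fold, 4.55-5.54) and Il2rg, the common gamma chain, was 1.60-fold of control. Ghr, the growth hormone receptor, whose signal Socs2 restrains, was at 864, 746 and 409 CPM, a ratio of 0.474 at 30 h, and Il4ra was at 0.615. All 4 JAKs passed and none was past 1.5-fold of control at 6 h or 30 h. Jak1 was at 1.25-fold and Jak2 at 1.23-fold of control at 6 h.

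Of 7 STAT genes, 6 passed, none was past 1.5-fold at 6 h, and 3 were 1.5-fold lower at 30 h. Stat3, which acts downstream of gp130, had 221, 310 and 145 CPM, or 1.40-fold of control at 6 h and 0.655 at 30 h. Stat2 was at 0.652 of control at 30 h. Stat5a, which drives Cish and Socs2, was at 0.615, with 10.2 CPM in control and 6.27 CPM at 30 h. Stat5b, the more abundant STAT5 gene, had 67.0 CPM in control and 54.5 CPM at 30 h, a ratio of 0.813. The median log2 ratio of the STATs was 0.17 at 6 h and -0.45 at 30 h. Among 11 cytokine target genes, 10 passed, and 3 were 1.5-fold higher at 6 h: Bcl6 (2.60-fold), Bcl3 (2.55-fold) and Cebpb (1.52-fold). At 30 h, 2 were 1.5-fold lower, Pim1 at 0.493 and Icam1 at 0.545 of control. The median log2 ratio of this list was 0.50 at 6 h and -0.37 at 30 h, and Junb is on it and on the immediate early list. Of 15 immediate early genes that passed, 6 were 1.5-fold higher at 6 h, and at 30 h 1 was 1.5-fold higher and 5 lower (median log2 ratios 0.49 and -0.47). Of 11 heat shock genes, 10 were 1.5-fold higher at 6 h, and at 30 h 1 was higher and 2 lower (medians 0.92 and 0.26).

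The machinery that SOCS proteins recruit, and other inhibitors of the pathway, stayed within 1.5-fold in both comparisons with control, as most genes did. Of all 10175 genes tested, 2.06% were 1.5-fold higher and 1.36% lower at 6 h, and 4.85% and 5.01% at 30 h. Within 1.5-fold were 6 of 6 partners of the SOCS box (Elob, Eloc, Cul5, Cul2, Rnf7 and Rbx1), the 10 other SOCS box genes that passed (of 12) and the 9 other inhibitors that passed (of 10), such as protein tyrosine phosphatases and Pias genes. Elob, an elongin subunit, had 385 CPM in control, 419 at 6 h and 531 at 30 h, 1.38-fold of control at 30 h. The median log2 ratios at 30 h were 0.12 for the partners, -0.16 for the other SOCS box genes and -0.27 for the other inhibitors.

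Genes with the most similar pattern were sought by Pearson correlation of log2(CPM + 1) over the 15 sums of 5 classes and 3 libraries, among 7168 genes averaging 20 CPM or more. The sums share libraries, so the coefficients are descriptions. For Socs3 the closest were Ier3 (r = 0.970), Junb (0.964), Zfp36 (0.961), Ppp1r10 (0.948) and Irgm2 (0.944), of which Ier3, Junb and Zfp36 are on the immediate early list. For Socs2 they were Tpt1 (0.932), Aff1 (0.927), Irak2 (0.918), Nfkbiz (0.917) and Slc35d1 (0.917). For Cish they were Rassf1 (0.955), Mfap2 (0.944), Jmjd6 (0.941), Ubald2 (0.935) and Ube2s (0.931). The closest genes of Socs4, Socs5, Socs6 and Socs7 were Tbck (0.876), Rpl7l1 (0.923), Mtm1 (0.913) and Med13 (0.908). Socs1, whose mean over the libraries was under 20 CPM, was not included. Among the members themselves, Socs1 included, the highest coefficients were those of Socs1 with Cish (r = 0.869) and with Socs3 (0.843), then of Socs3 with Cish (0.720). Socs1 rested on 1 UMI in each LEC sum. Socs5 ran opposite to Socs4 (-0.730) and Socs6 (-0.722). In the artery and LEC sums, Socs4, Socs5 and Socs6 rested on only 13 to 84 UMIs each.

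Each member had its own gene model in GENCODE M21 (GRCm38). Socs3 lies on chr11:117966079-117970047, Socs1 on chr16:10782240-10785536 and Socs2 on chr10:95385362-95417180, all on the minus strand. Cish lies on chr9:107296026-107302784, Socs4 on chr14:47276931-47296102, Socs5 on chr17:87107679-87137839 and Socs7 on chr11:97362551-97398542, all on the plus strand. None of these 7 overlapped a gene on its own strand. Cish overlapped 2 antisense models, Gm17040 and Gm17041, and Socs6 overlapped models on both strands, so UMIs of Socs6 may be divided with AC122398.2 and AC122398.3.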

How the data were processed

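Cells were sorted from lungs, and 3′ droplet libraries were sequenced, 1 library for each of the 3 groups taken from the treatment in the labels. The deposited values are raw UMI counts per gene and barcode, unfiltered, made by the authors with Cell Ranger 7.2.0 per the file headers (mm10); the methods text names an earlier release. Whether intronic reads were counted is not given in the sources used here. The submitters' processing notes also name Seurat 4.4.0, whose output was not analysed here.

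Endothelial barcodes had 1000 to 5000 genes, under 20% mitochondrial UMIs and at least 2 UMIs of Pecam1 plus Cdh5. Classes were gated on UMIs of fixed markers (gCap 20, aCap 15, artery 10, vein 20, LEC 10), with thresholds set after marker levels were seen. Poisson, conditional binomial and Clopper-Pearson intervals (95%) used scipy 1.17.1. Classes were tested with edgeR 4.0.16 (quasi-likelihood, TMM, filterByExpr, Benjamini-Hochberg adjustment); a standard error is the log2 difference divided by the root of F. DESeq2 1.42.0, other scalings, filters, gates, thinning and doublet removal (Scrublet in scanpy 1.11.5) were alternatives. Doublets stayed in. Scripts were tested on simulated data.

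All 8 members are described. Of the pathway lists, genes past 1.5-fold of control are named, up to 6 per list (immediate early and heat shock genes by count and median only), with Il6st, Osmr, Jak1, Jak2, Stat3 and Stat5a always, and the 5 genes most like each member were ranked. A further gene that the rule names is not reported here, and Stat5b, Ptprb, Elob and the 7 genes set beside Socs3 in single barcodes were chosen outside it, after values were seen. Members and lists were chosen with earlier results of these data known.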

Additional observations from a re-analysis of the deposited data

Results flagged for a closer look

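Socs6 in the 6 h library lay on opposite sides of control in 2 classes. In vein-gated barcodes it was at 0.717 of control (0.558-0.917), on 101 UMIs at 6 h and 192 in control, and in gCap-gated barcodes at 1.09 (1.02-1.17). The difference was not tested, since each group has 1 library.

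Empty droplets, which belong to no endothelial sum, held Socs3 at a CPM 1.51 times that of control in the 6 h library (1.32-1.74), on 447 and 373 UMIs. Over endothelial barcodes the ratio was 1.53.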

How the results depend on the processing

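Each group has 1 library, so none could be left out of a comparison between groups, and the intervals do not cover variation between mice. No paired analysis was possible because the groups share only replicate number 1. Over 12 alternatives, Socs3 lay between 1.32 and 1.58 of control at 6 h and between 0.673 and 0.990 at 30 h. At 6 h it was 1.51 with barcodes of at least 300 genes, 1.57 without barcodes with markers of other cells, 1.32 in barcodes with a low immediate early share and 1.58 in gCap-gated barcodes alone, an alternative chosen after seeing the data. At 30 h it was 0.742 with median of ratios scaling, 0.720 with totals without mitochondrial and ribosomal RNA genes, 0.717 with at least 300 genes, 0.731 without other-cell barcodes, 0.719 without doublets, 0.684 as a mean per barcode, 0.673 after thinning, 0.732 with the class makeup of the control, 0.990 at a low immediate early share and 0.744 in gCap-gated barcodes. Members past 1.5-fold at 6 h numbered 0 at a low immediate early share and 0 at a 2-fold limit, and at 30 h 1 with median of ratios scaling and 1 at a 2-fold limit, in place of 2 and 3. There were 2 at 30 h after thinning, without Socs7 (0.702), and 2 at a low immediate early share, without Cish (0.706). At a low immediate early share Socs1 lay at 0.911 at 6 h against control and 1.16 at 30 h against 6 h. In the lowest gCap bin it rested on 28 UMIs at 6 h and 50 in control, so a change of direction is not shown. The cause of these shifts was not tested.

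In the class test, 0 of 14 calls changed direction, while some of the 18 uncalled differences changed sign without a call, and 7 of 14 calls held in all 10 alternatives: Socs3 in aCap and LEC, Socs2 in aCap and vein, Cish in artery and LEC, and Socs1 in LEC. The last rests on 1 UMI per library in LEC, under the expression limit, so holding in the alternatives adds little to it. With no library block there were 7 calls in place of 14. Leaving out 1 library gave 10 to 15 calls, and the other alternatives 13 to 17.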
